A study of Sus scrofa with 2 samples.

Results

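The 10 genes described here belong to the NOTCH pathway, through which neighbouring cells signal to each other: the ligands JAG1 and JAG2, the receptors NOTCH1, NOTCH2 and NOTCH3, the target genes HES1, HEY1, HEY2 and HEYL, and LFNG, an enzyme that modifies the receptors. They were chosen by gene symbol, and all 10 were found among the 22342 genes listed for both follicles. Single cells had been prepared from 2 antral follicles of the ovary, AF75 (antral follicle 1) and AF76 (antral follicle 2), taken from a single Landrace and Yorkshire cross gilt 210 days of age. According to the methods of the study the animal had been primed with PMSG, and the follicles were over 7 mm across. Each follicle was punctured, the cumulus-oocyte complexes were picked out by needle and treated with hyaluronidase, and the granulosa cells left in the fluid were spun down. Each follicle gave a single 10x Genomics 3′ library. A follicle is therefore 1 sample, follicle and library cannot be told apart, and no p-value is given: intervals are exact 95% intervals that cover counting error only.

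NOTCH receptors and their ligands both sit in cell membranes, so that a ligand on one cell activates a receptor on the cell beside it. The bound receptor is cut by the protease ADAM10 and then by the gamma-secretase complex, its intracellular part enters the nucleus, and together with the DNA-binding protein RBPJ and a MAML coactivator it switches on genes of the HES and HEY families, which encode transcriptional repressors. LFNG adds a sugar to the receptors and so shifts their response to different ligands. In the mouse ovary, JAG1 and NOTCH2 are known for their part in the formation of follicles and in granulosa cell growth.

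The DNA letters that RBPJ recognises occur in front of some of these genes, and the upstream sequences of the targets HEY2 and HEYL are shown as examples. In the pig RefSeq annotation of Sscrofa11.1, HEY2 lies on chromosome 1 (chr1:37219887-37231321, minus strand), HEYL on chromosome 6 (chr6:95442655-95459597, minus strand) and HES1 on chromosome 13 (chr13:131135970-131137865, plus strand). The 250 bases before each annotated gene start were searched on both strands for the RBPJ site CGTGGGAA, whose reverse complement is TTCCCACG. It was found in the windows of 3 of the 10 genes. The 2 shown here, HEY2 and HEYL, hold it in the window read 5′ to 3′ towards the gene, each time as the reverse complement, which is given in capitals:
HEY2, chr1:37231322-37231571, minus strand: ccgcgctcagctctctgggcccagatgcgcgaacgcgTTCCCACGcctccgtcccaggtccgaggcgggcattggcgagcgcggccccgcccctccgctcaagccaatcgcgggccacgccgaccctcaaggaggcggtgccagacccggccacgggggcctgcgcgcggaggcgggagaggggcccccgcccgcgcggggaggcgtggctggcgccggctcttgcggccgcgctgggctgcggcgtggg
HEYL, chr6:95459598-95459847, minus strand: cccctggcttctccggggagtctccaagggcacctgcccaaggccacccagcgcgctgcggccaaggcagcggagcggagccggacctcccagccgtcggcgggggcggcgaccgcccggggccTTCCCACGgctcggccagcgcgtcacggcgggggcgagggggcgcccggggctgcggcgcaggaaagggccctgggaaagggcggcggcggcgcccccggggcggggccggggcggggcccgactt
The site begins 213 bases before the start of HEY2 and 126 bases before that of HEYL. Beside the 3 of 10 windows, 166 of all 20664 gene windows of this length (0.803%) held the site. The shorter core TGGGAA, which the site contains, was present in 5 of the 10 windows and in 24.6% of all windows. The window of HES1 did not hold the 8 letters, which says nothing of binding elsewhere.

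After barcodes with 2000 to 5000 genes and under 7% mitochondrial UMIs were retained, 9362 cells of AF75 and 7843 of AF76 remained, with a median of 11254.5 and 13902 UMIs per cell. Of these cells, 18 in each follicle carried a barcode sequence that was also kept in the other. Graph-based clustering without the 10 genes gave 6 clusters, named here by number and leading genes. Cluster 0 (TGFB3, ENPP2, IL33) held 6387 cells of AF75 and 5902 of AF76, cluster 1 (ARPP21, ALPK2, SHAS2, with the highest VCAN) 2342 and 960, cluster 3 (TOP2A and other cell division genes) 452 and 121, and cluster 4 (ALDH1A2, SLC24A1, SCG2) 179 and 175. Cluster 2 (DEFB1, CCL26, CEMIP, CCDC80) held 676 cells of AF76 and only 2 of AF75. Cluster 5, with immune markers, had 9 cells, all of AF76. INHA, the inhibin alpha subunit made by granulosa cells, was between 12001 and 24532 CPM (a gene's part of all UMIs of the same cells, where 10000 CPM is 1%) in clusters 0, 1, 3 and 4 and 2244 CPM in cluster 2 of AF76.

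A ligand, a receptor and a target made up nearly all NOTCH pathway UMIs among these genes. NOTCH2 was the most abundant, at 143 CPM in AF75 (15956 UMIs, interval 141 to 146) and 138 CPM in AF76 (15038 UMIs, 136 to 140). JAG1 followed at 134 CPM (14887 UMIs, 132 to 136) and 119 CPM (12951 UMIs, 117 to 121), and HEY2 came next at 13.8 CPM (1530 UMIs, 13.1 to 14.5) and 13.7 CPM (1490 UMIs, 13.0 to 14.4). These intervals did not overlap within either follicle, so the order of the 3 genes was the same in both. CPM here counts 3′ ends and has no length term, but it does rest on how well each gene's 3′ end is annotated, so a comparison between genes is less certain than one between cells.

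The other receptors were near 1 CPM. NOTCH1 was at 0.827 CPM (92 UMIs) in AF75 and 1.16 CPM (126 UMIs) in AF76, and NOTCH3 at 0.782 CPM (87 UMIs) and 0.845 CPM (92 UMIs). LFNG stood at 0.890 CPM (99 UMIs) and 1.36 CPM (148 UMIs). These 3 genes overlapped in their intervals in AF75, and in AF76 LFNG and NOTCH1 overlapped, as did NOTCH1 and NOTCH3. HES1 was at 0.674 CPM (75 UMIs) in AF75, where it overlapped NOTCH3, and at 2.19 CPM (239 UMIs) in AF76, where it stood above LFNG.

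JAG2, HEY1 and HEYL were at the limit of detection. For JAG2, AF75 gave 0 UMIs over 9362 cells, where the limit set by 3 counts is 0.0320% of cells with a UMI, and AF76 gave 2. HEY1 had 2 UMIs in each follicle, and HEYL had none in AF75 and a single UMI in AF76. Of the genes whose windows are shown, HEY2 was readily detected and HEYL had at most 1 UMI in a follicle.

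**Figure D1:**
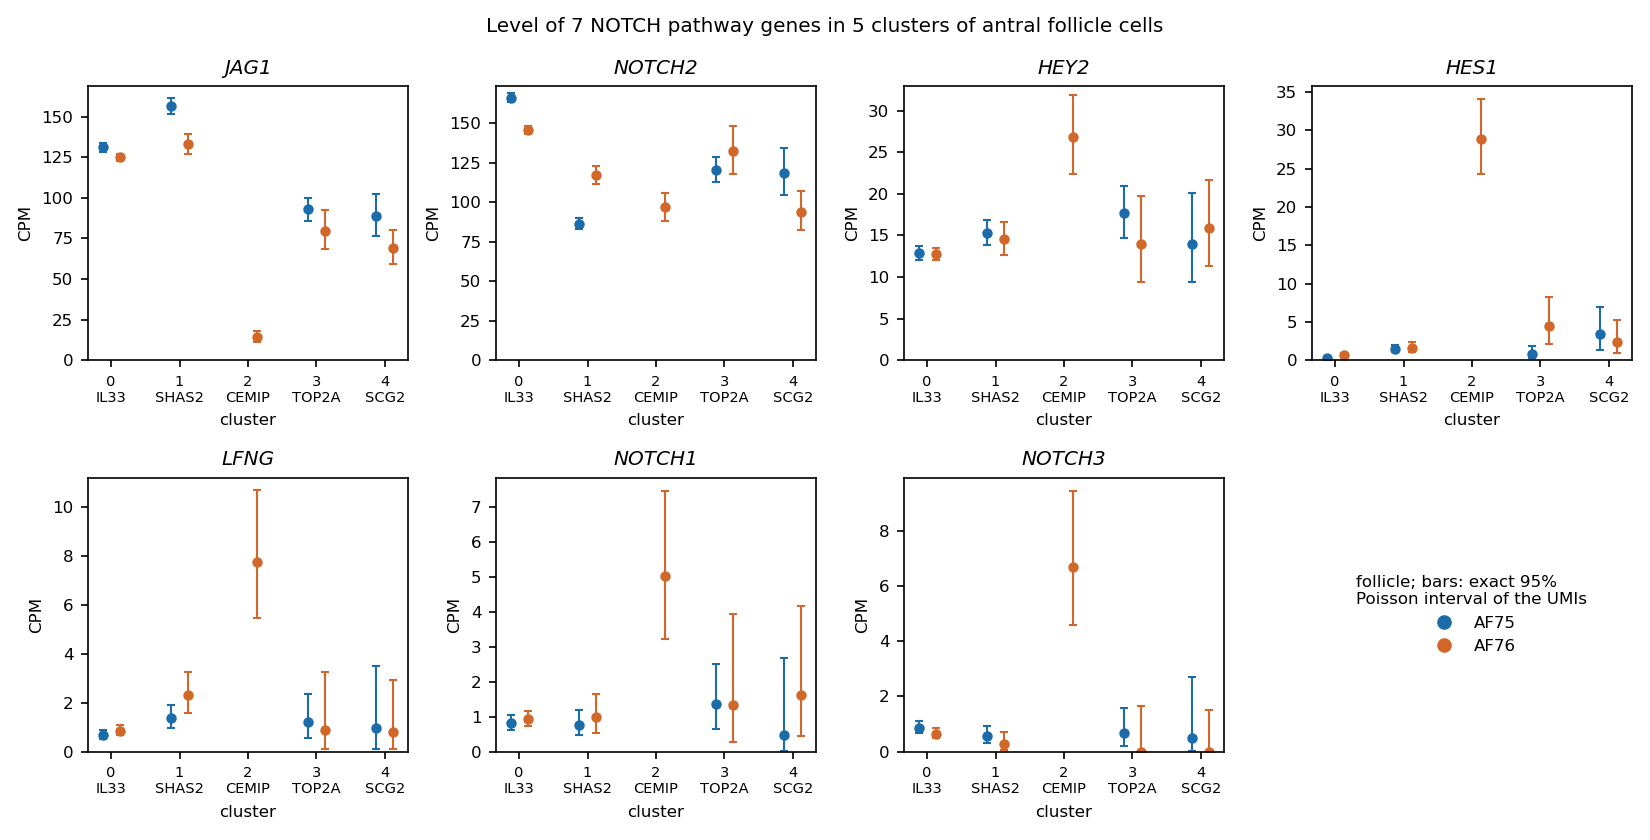
Level (CPM, linear axis from 0) of 7 genes in clusters 0 to 4 of AF75 (blue) and AF76 (orange), with exact 95% Poisson intervals as bars; clusters with under 100 cells in a follicle are left out, so cluster 2 is shown for AF76 alone. JAG1 is lowest in cluster 2, where HES1, HEY2, LFNG, NOTCH1 and NOTCH3 are highest, and NOTCH2 has its highest value in cluster 0 of each follicle.

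The share of cells in which a gene was seen followed its level. NOTCH2 was detected in 72.7% of cells of AF75 and 76.1% of AF76, JAG1 in 59.4% and 58.5%, and HEY2 in 13.5% and 15.3%. When each cell was thinned to 5000 UMIs, which left out 19 and 105 shallower cells, these shares became 47.0% and 46.5% for NOTCH2, 39.5% and 35.5% for JAG1 and 6.28% and 6.76% for HEY2. HES1 was detected in 0.630% and 1.90% of cells, 0.321% and 1.10% after thinning. As a measure of free RNA, barcodes with more than 20% haemoglobin UMIs were examined, a rule set after the data were seen. In the 46 such barcodes of AF76 (median 3602 UMIs) JAG1 was found in 4 (8.70%, exact interval 2.42 to 20.8%) and NOTCH2 in 1 (2.17%, 0.0550 to 11.5%), with HES1 and HEY2 in none. In AF75 there were 12 such barcodes (median 1811.5 UMIs), none with a UMI of any of the 10 genes.

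Between the follicles, JAG1, NOTCH2 and HEY2 differed little. JAG1 in AF76 was 0.888 times its level in AF75 (interval 0.868 to 0.910), NOTCH2 0.962 times (0.941 to 0.984) and HEY2 0.994 times (0.925 to 1.07). The interval of HEY2 included 1, and those of JAG1 and NOTCH2 lay just below it.

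HES1 was 3.25 times its AF75 level in AF76 (2.50 to 4.28), and the 3 genes above did not pass 2-fold. Across the 10049 genes with at least 200 UMIs in either follicle, 2.49% passed 2-fold in either direction, but HES1 met that minimum only through AF76, where it was high, so its call is a description. Most of the excess lay in cluster 2, which held 138 of the 239 HES1 UMIs of AF76 (57.7%) in 8.62% of its cells. Without cluster 2, 101 HES1 UMIs in AF76 stood against 75 in AF75, a ratio of 1.44 (1.06 to 1.97), where 2.17% of genes passed. Within cluster 0 the ratio was 2.40 (1.46 to 4.05), on 62 against 23 UMIs, so the ratio was nearer to 1 in both and its interval remained above 1. LFNG was at 1.53 times (1.18 to 1.99) in all cells and 1.20 times (0.905 to 1.59) without cluster 2, and NOTCH1 at 1.40 times (1.06 to 1.85) and 1.18 times (0.884 to 1.59). NOTCH3 was at 1.08 times (0.797 to 1.46) and 0.736 times (0.521 to 1.04), with both intervals including 1.

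NOTCH2 differed between the follicles in opposite directions in the 2 largest clusters. In cluster 0 it was 166 CPM in AF75 and 145 CPM in AF76, a ratio of 0.875 (0.853 to 0.897), whereas in cluster 1 it was 86.3 CPM in AF75 and 117 CPM in AF76, a ratio of 1.36 (1.28 to 1.45). JAG1 was lower in AF76 in both, at 0.952 times (0.927 to 0.979) in cluster 0 and 0.851 times (0.806 to 0.899) in cluster 1. The size of the NOTCH2 log2 ratio exceeded that of 75.1% of counted genes in cluster 0 and 78.5% in cluster 1. Cluster 1 itself was not alike in the follicles: from AF75 to AF76 its VCAN fell from 5773 to 1068 CPM and its AREG rose from 1040 to 4424 CPM. Its NOTCH2 log2 ratio to cluster 0 in AF76 also went from -0.31 to 0.029 without integration, so the opposite directions are a description.

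**Figure D2:**
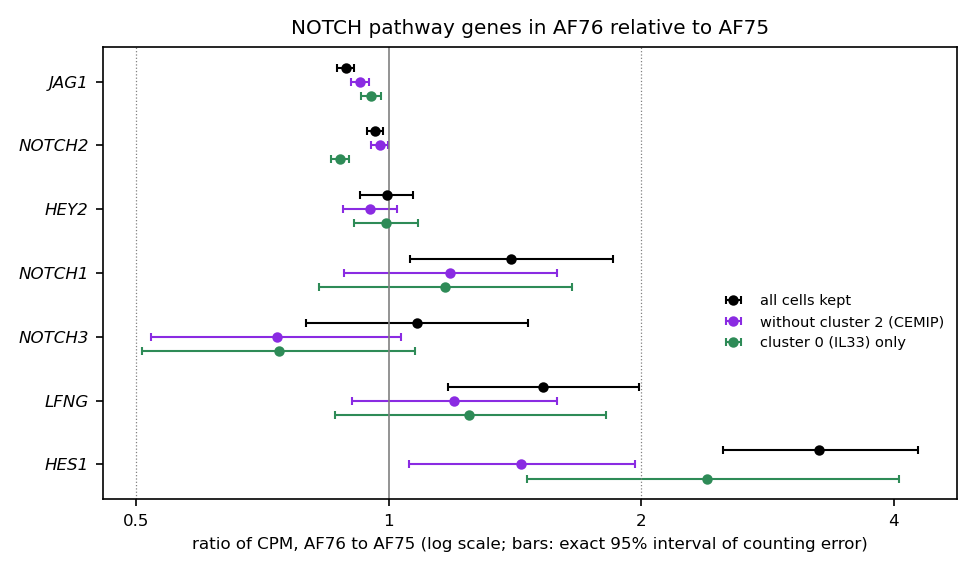
Ratio of CPM in AF76 to AF75 (log axis) for 7 genes in all cells kept (black), without cluster 2 (purple) and in cluster 0 alone (green), with exact 95% intervals of counting error; the dotted lines mark 2-fold. HES1 falls from 3.25 to 1.44 when cluster 2 is left out, while JAG1, NOTCH2 and HEY2 stay close to 1.

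The 2 largest clusters differed in the receptor more than in the ligand. In AF75, NOTCH2 fell from 166 CPM in cluster 0 to 86.3 CPM in cluster 1, a ratio of 0.519 (0.496 to 0.543), and in AF76 it was 145 and 117 CPM, a ratio of 0.807 (0.766 to 0.849). JAG1 was slightly higher in cluster 1, by 1.19 times (1.15 to 1.24) and 1.07 times (1.02 to 1.12). HEY2 was 1.19 times (1.06 to 1.34) and 1.14 times (0.977 to 1.32) its level in cluster 0. None of these 3 passed 2-fold in either follicle, where 8.13% of genes did (AF75) and 1.39% (AF76). The AF76 values rested on the integration of the follicles: clustered without it, the log2 ratio of NOTCH2 was 0.029 and that of JAG1 -0.22, and after thinning that of JAG1 was -0.021. VCAN in cluster 1 was at 5773 CPM (AF75) and 1068 CPM (AF76), with 691 and 285 CPM in cluster 0.

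LFNG, the receptor-modifying enzyme, had a higher CPM in cluster 1 than in cluster 0 in each follicle, though it and HES1 had under 200 UMIs and were not counted among the genes past 2-fold. It was 1.37 against 0.687 CPM in AF75, 2.00 times (1.27 to 3.12), and 2.32 against 0.858 CPM in AF76, 2.70 times (1.73 to 4.13), on 36 and 33 UMIs in cluster 1. After thinning, LFNG was seen in 0.471% (0.235 to 0.841%) of cluster 1 cells and 0.361% (0.229 to 0.541%) of cluster 0 cells of AF75. In AF76 these shares were 1.25% (0.649 to 2.18%) and 0.458% (0.302 to 0.666%). The intervals overlapped in each follicle. HES1 was 4.90 times higher in cluster 1 of AF75 (2.85 to 8.59, 39 against 23 UMIs). In AF76 its ratio was 2.22 (1.31 to 3.63, 23 against 62 UMIs), a log2 ratio of 1.15 that became 0.042 without the cells of highest doublet score, 2.10 with 20 components and 4.03 without integration, so its size is not fixed by these data.

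All but 2 cells of cluster 2 were from AF76, so that the cluster and that library cannot be told apart, and in AF76 it had the lowest JAG1 and the highest HES1 of the clusters with at least 100 cells. JAG1 was 14.4 CPM there (69 UMIs) against 125 CPM in cluster 0 of AF76, a ratio of 0.116 (0.0898 to 0.146), where 9.28% of 9417 genes were 2-fold lower. NOTCH2 was 96.6 CPM (462 UMIs), 0.665 times its level in cluster 0 (0.605 to 0.730). HEY2 was 26.8 CPM (128 UMIs), 2.10 times higher (1.73 to 2.52), where 20.4% of genes were 2-fold higher. The median gene was higher in cluster 2 by 0.35 on the log2 scale, and relative to it the log2 ratio of HEY2 was 0.72, under 2-fold. The log2 ratio of NOTCH2 was -0.59 as measured, so relative to the median gene NOTCH2 was lower still.

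HES1 showed the widest difference of the 10 genes. It was 28.9 CPM in cluster 2 (138 UMIs in 80 of 676 cells, interval 24.2 to 34.1) and 0.728 CPM in cluster 0 of the same follicle, 39.6 times higher (29.2 to 54.4). Of the 9417 genes with at least 200 UMIs in either cluster, 27 (0.287%) reached that ratio. HES1 itself, with 138 and 62 UMIs, was below that minimum and is not among them. The minimum leaves out genes with counts like those of HES1, so this share is no background for it. The share of cells with a HES1 UMI was 11.8% in cluster 2 and 0.796% in cluster 0, although cluster 2 was shallower, with a median of 6429 against 14222.5 UMIs per cell. NOTCH3 was 10.4 times higher (6.48 to 16.3, 6.69 CPM on 32 UMIs), LFNG 9.02 times (5.90 to 13.6, 7.74 CPM on 37 UMIs) and NOTCH1 5.34 times (3.24 to 8.52, 5.02 CPM on 24 UMIs). Among the AF76 clusters of at least 100 cells, HES1 and these 3 rare genes had their highest levels in cluster 2. The share of all genes with counts this low that were higher there was not computed, so this is a description of the cluster.

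The 14.4 CPM of JAG1 in cluster 2 lay within the wide interval of the red cell barcodes. Those of the same library had 22.3 CPM of JAG1 (6.08 to 57.2, on only 4 UMIs) and 2160 CPM of INHA, beside 2244 CPM of INHA in cluster 2. Over 20% of their UMIs were haemoglobin and their median depth was 3602 against 6429 UMIs. A like CPM is therefore not a like number of UMIs per barcode. Cluster 2 had 69 JAG1 UMIs beside 10728 INHA UMIs and cluster 0 of AF76 had 10633 beside 2087856, proportions whose intervals overlapped. NOTCH2 in the red cell barcodes was 5.58 CPM (1 UMI, 0.141 to 31.1), below the 96.6 CPM of cluster 2. HES1 in cluster 0 amounted to 2.52% of its level in cluster 2 (1.84 to 3.43%), and for CEMIP, one of the leading genes of cluster 2, the value was 0.759% (0.694 to 0.828%). The part of free RNA in these levels was not tested.

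Cluster 2 held markers of more than one cell type. It carried smooth muscle genes (ACTA2 at 61.3 CPM, MYH11 at 103 CPM, PDGFRB at 39.7 CPM) that were under 3 CPM in cluster 0, while DES was 0.209 CPM and CSPG4 0. Of the 6 smooth muscle or pericyte markers 5 were detected, with RGS5, which was 289 CPM or more in clusters 0 to 4, making up 289 of their summed 494 CPM. It also carried the gonadotropin receptor FSHR at 38.3 CPM and the anti-Müllerian hormone receptor AMHR2 at 43.3 CPM, both on the granulosa marker list and at 0.376 and 3.77 CPM in cluster 0. Of that list INHBA was also higher, at 622 against 390.5 CPM, whereas INHA and SERPINE2 (1521 against 6996 CPM) were lower, and the summed level of its 5 detected genes was 4468 against 31922 CPM. Of the mural granulosa markers, AREG was 236 against 5873 CPM and CYB5A 247 against 707 CPM. The others did not go the same way: CYP11A1 was 1977 against 1696 CPM, CYP19A1 35.6 against 36.0 CPM and LHCGR 12.1 against 11.2 CPM. The mural list summed to 2509 against 8323 CPM. The stromal genes DCN and LUM were 18.4 and 13.6 CPM and the endothelial gene VWF 22.6 CPM, each under 1 CPM in cluster 0, while the stromal list summed to 83.7 against 556 CPM and the endothelial list to 37.2 against 12.3 CPM, with CDH5 at 0. The part of these cell features in the NOTCH values was not tested.

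Within cluster 2, HES1 was lower in the cells with at least 5 UMIs of CEMIP and CCDC80 than in those with none. In a split made after the data were seen, 375 of the 676 cells had at least 5 such UMIs and 130 had none. Since CEMIP was detected in 283 of the 676 cells, not all of the 375 carried both genes. HES1 was 21.9 CPM (60 UMIs) in the former and 41.3 CPM (35 UMIs) in the latter, a ratio of 0.530 (0.344 to 0.829). JAG1 (15.7 and 17.7 CPM) and HEY2 (25.9 and 29.5 CPM) had ratios whose intervals included 1. NOTCH3 was 8.76 CPM (24 UMIs) and 2.36 CPM (2 UMIs), with a ratio of 3.71 whose interval of 0.922 to 32.4 included 1. The ratios of NOTCH1 (4.64, 0.714 to 195, on 15 and 1 UMIs), LFNG (0.534, 0.242 to 1.24) and NOTCH2 (0.857, 0.676 to 1.09) had intervals that included 1 as well. MYH11 was 2.10 times higher (1.58 to 2.83) in the cells with at least 5 such UMIs, and VCAN 0.464 times (0.429 to 0.503).

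In the smaller clusters the ligand JAG1 was lower than in cluster 0 in both follicles. JAG1 in cluster 3, the dividing cells, was 0.708 times its level in cluster 0 in AF75 (0.654 to 0.766) and 0.639 times in AF76 (0.548 to 0.741), where 8.77% and 7.87% of genes passed 2-fold. In cluster 4 it was 0.677 times (0.582 to 0.783) and 0.553 times (0.473 to 0.644), where 5.05% and 4.89% did. NOTCH2 in cluster 3 was 0.724 times (0.675 to 0.775) in AF75 and 0.911 times (0.809 to 1.02) in AF76, and in cluster 4 0.714 times (0.627 to 0.810) and 0.646 times (0.565 to 0.736). HEY2 was 1.37 times (1.13 to 1.65) in cluster 3 of AF75, and its other 3 intervals here included 1. None of the 3 genes passed 2-fold.

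HES1 in clusters 3 and 4 rested on a handful of cells. It had 10 UMIs in cluster 3 of AF76, 7 of them in a single cell, and 6 UMIs in cluster 4, 5 of them in a single cell. In AF75 it had 6 UMIs in 6 cells of cluster 3 and 7 UMIs in 5 cells of cluster 4, 3.38 CPM (1.36 to 6.96), against 0.304 CPM (0.193 to 0.456) in cluster 0. Among the clusters of at least 100 cells, cluster 0 thus had the lowest HES1 in both follicles, though its interval overlapped that of cluster 3 in AF75 and that of cluster 4 in AF76.

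The wider pathway was represented by a list of 56 other NOTCH genes, all found. Of these, 35 were above 10 CPM in both follicles, 14 were under 1 CPM in both, and 4 of the 56 had no UMI at all. The processing and nuclear steps were well covered: PSENEN, a gamma-secretase subunit, was 215 CPM in AF75 and 240.0 CPM in AF76, ADAM10 99.8 and 102 CPM, RBPJ 122 and 128 CPM, and the repressor-associated deacetylase HDAC2 109 and 111 CPM. Of the delta-like genes on the list, DLL3 was 9.44 and 11.5 CPM and DLL4 1.02 CPM in each, while DLL1 had 2 UMIs in AF75 and 0 in AF76. None of the 41 list genes with enough UMIs passed 2-fold between the follicles, against 2.49% of all genes.

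Between clusters more of the list differed. In AF75, 3 of 40 were 2-fold higher in cluster 1 than in cluster 0 (MAML3, NUMBL and GATA4) and 3 lower (DLL3, APH1B and TLE4), where 3.60% of all genes were higher and 4.52% lower, and in AF76 0 of 40 passed, where 1.39% of all genes did. In cluster 2, 11 of 40 were 2-fold higher than in cluster 0, next to 20.4% of all genes, and DLL3 alone was lower, at 3.76 against 12.6 CPM, next to 9.28% of all genes. The 11 were POGLUT1 and NCSTN, which act on the receptors, the coactivators MAML2, MAML3, CREBBP and KAT2B, the corepressors SPEN, NCOR1, CTBP2 and HDAC2, and DTX3. The median log2 ratio of the list was 0.55, beside 0.35 for all genes.

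JAG1 was unevenly spread among cells. At 5000 UMIs per cell, 60.5% of AF75 cells had no JAG1 UMI where a Poisson distribution with the same mean gives 50.4%, and 1.52% had 5 or more where it gives 0.0714%, with 14 the most in any cell. In AF76 the shares were 64.5% where Poisson gives 56.1%, and 0.840% where it gives 0.0333%. The Fano factor, the variance over the mean, is 1 for counting alone and was 1.89 in AF75 and 1.70 in AF76. That was higher than 95.7% of 819 and 92.8% of 828 genes with a mean of 0.5 to 1 UMI, whose median was 1.08 and 1.09. The spread was present inside cluster 0 alone, at 1.76 and 1.67.

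The receptor was more even than its ligand. NOTCH2, with nearly the same mean, had a Fano factor of 1.28 and 1.21, above 80.7% and 73.8% of those genes, and 1.25 and 1.21 in cluster 0. HEY2 had 1.13 and 1.11, at a much lower mean where counting weighs more. HES1 was 1.12 in AF75 and 1.52 in AF76, and 1.51 within cluster 2, where 12 of 585 thinned cells held 2 UMIs and 4 held 3.

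**Figure D3:**
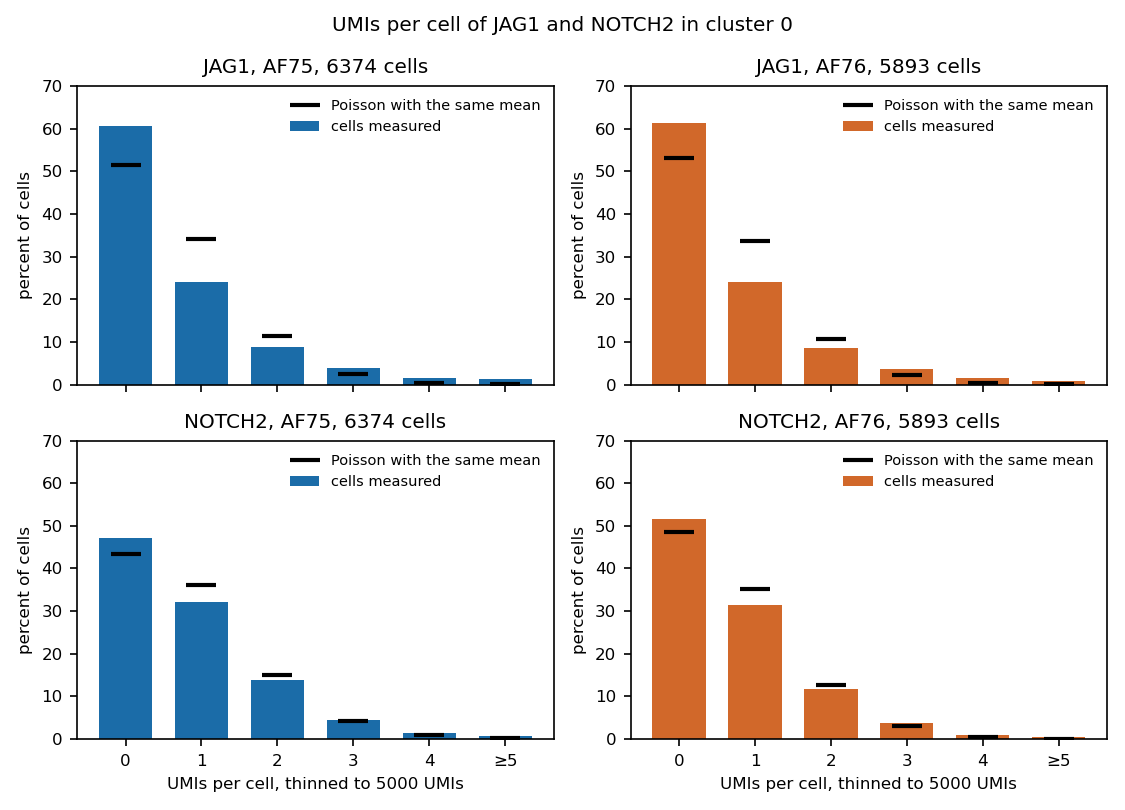
Percent of cells of cluster 0 with 0 to 4, or 5 or more, UMIs of JAG1 (top) and NOTCH2 (bottom) after thinning to 5000 UMIs per cell, for AF75 (blue, 6374 cells) and AF76 (orange, 5893 cells); black dashes give a Poisson distribution with the same mean. JAG1 exceeds the dashes at 0 and at 3 or more UMIs and falls below them at 1 and 2, and NOTCH2 stays nearer to them.

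Correlations between these genes across cells were all close to 0. Of the 45 pairs of the 10 genes, 28 had a value in each follicle, and Pearson's r ranged from -0.021 (NOTCH2 and HEY2) to 0.024 (NOTCH1 and NOTCH3) in AF75 over 9343 thinned cells, and from -0.042 (JAG1 and HES1) to 0.028 (NOTCH1 and LFNG) in AF76 over 7738. All cells of a follicle share 1 library, and counts this sparse keep r close to 0, so these values are a description. JAG1 and NOTCH2 had r of -0.019 and 0.021, and were seen together in 1696 cells of AF75, where 1735 would be if they were independent, and in 1306 of AF76, where 1276 would be.

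Grouping the cells by their JAG1 count showed the same. In cluster 0 of AF75, NOTCH2 was 171 CPM in cells with no JAG1 UMI, 158 CPM in those with 1 or 2 and 170 CPM in those with 3 or more, and in AF76 146, 141 and 156 CPM. For HEY2 the AF75 levels were 12.5, 12.9 and 15.9 CPM, and the AF76 levels 12.5, 12.8 and 13.4 CPM. The intervals of the lowest and highest JAG1 group overlapped in each of these 4 series. For HES1 in all cells of AF76 the levels were 3.73, 1.29 and 0.478 CPM, and in cluster 0 alone 0.774, 0.522 and 0.560 CPM, on 14, 5 and 1 UMIs, with intervals that overlapped. Transcripts in dissociated cells do not show which cells had been neighbours, the arrangement in which JAG1 acts on NOTCH2.

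**Figure D4:**
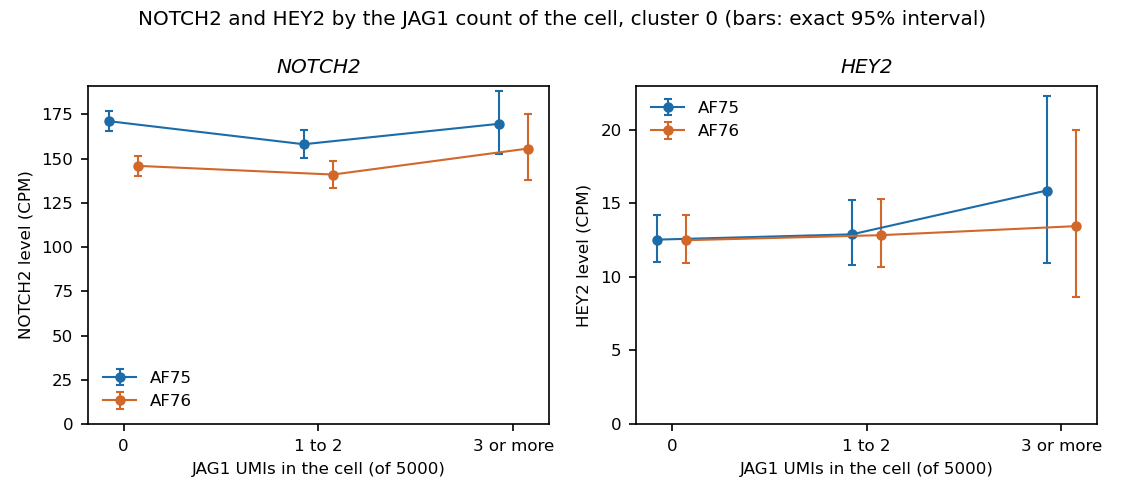
Level (CPM, axis from 0) of NOTCH2 (left) and HEY2 (right) in cells of cluster 0 with 0, 1 to 2, or 3 or more JAG1 UMIs after thinning, for AF75 (blue) and AF76 (orange), with exact 95% intervals. NOTCH2 stays between 141 and 171 CPM and HEY2 between 12.5 and 15.9 CPM, and the intervals of the outer groups overlap.

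The genes whose counts went most with each of the 3 detected members were taken as those with the highest lower r of both follicles, among 5053 genes (5054 for HEY2) seen in at least 10% of cells. For NOTCH2 these were HADH, a mitochondrial fatty acid oxidation enzyme (r of 0.185 in AF75 and 0.110 in AF76), ENSSSCG00000015545 (0.099 and 0.101) and the cytokine IL33 (0.155 and 0.098). IL33 is among the leading genes of cluster 0, where NOTCH2 had its highest value. For JAG1 they included LRP4 (0.075 and 0.107) and EHBP1 (0.072 and 0.091), and for HEY2 they were TNFAIP8L3 (0.036 and 0.079), the gap junction protein GJA1 (0.034 and 0.043) and SKIL (0.033 and 0.049). All were weak.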

How the data were processed

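Somatic cells of 2 pig antral follicles were profiled by 10x Genomics 3′ single-cell sequencing. The authors aligned and counted the reads with Cell Ranger 6.0.2 against Sscrofa11.1, and the deposited values are whole-number UMI counts per gene and barcode, not normalized. Of 22342 genes, 7356 had no symbol, and 1042 of those were named from RefSeq.

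The files held 14289 barcodes with 125409747 UMIs (AF75) and 15548 with 127414267 (AF76). Barcodes with 2000 to 5000 genes and under 7% mitochondrial UMIs were kept, leaving 111226504 and 108920601 UMIs. The study also removed doublets; here they were kept, and removing the 6.9% of cells with the highest Scrublet scores (scanpy 1.11.5) was an alternative. Clusters came from Seurat 5.3.0 (anchor integration, 2000 variable genes without the 10 genes and the pathway list, 40 components), at the lowest resolution giving 6 clusters. They were rebuilt and may differ from those of the study.

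UMIs were summed per follicle and cluster and given as CPM, with exact Poisson, Clopper-Pearson or conditional ratio intervals. UMIs are counts of tagged molecules, and the intervals cover counting error only. A gene was called past 2-fold among those with at least 200 UMIs in either group. Correlations and Fano factors used cells thinned to 5000 UMIs. The ratio and its interval were tested on simulated data.

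The 10 genes were examined in every result, and the text gives those with enough UMIs for a value, the pathway genes where past 2-fold (otherwise the 5 highest), and the 3 genes most like each well-detected member; a few items these rules select are not reported here. The single pathway genes named beyond this (DLL1, DLL3 and DLL4 levels) were chosen after their values were seen. The genes, lists and comparisons were chosen with earlier results of these data known. The red cell barcodes, the CEMIP and CCDC80 split, the values without cluster 2 and the alternatives of the ratios of cluster 2 to cluster 0 were set after the data were seen. Promoter sequences and positions are from RefSeq on Sscrofa11.1; JAG2 and NOTCH1 lie on unplaced sequence.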

Additional observations from a re-analysis of the deposited data

Results flagged for a closer look

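Each member was examined in each kind of barcode outside the cells kept, and its level was compared with the kept cells of the same follicle. Of all these levels, 7 rested on more than 3 UMIs, were at least 2-fold higher and had an interval above the level of the kept cells. The share of all genes meeting this rule in the same barcodes was not computed, so the count is a description. In AF76 barcodes with under 2000 genes, HES1 was 14.99 CPM (177 UMIs) against 2.19 CPM in the kept cells, and LFNG was 3.64 CPM (43 UMIs) against 1.36 CPM. The same kind of barcode in AF75 had HES1 at 0.514 CPM (4 UMIs). JAG1 and NOTCH2 were lower in the AF76 barcodes, at 51.0 and 70.1 CPM. In a split of these barcodes by CEMIP and CCDC80, HES1 was 12.7 CPM (6 UMIs, 4.65 to 27.6) in 152 barcodes with at least 5 such UMIs. It was 14.2 CPM (124 UMIs, 11.8 to 17.0) in 5588 with none. JAG1 was 21.1 and 44.7 CPM and NOTCH2 116 and 55.7 CPM. The median depth was 3328.5 UMIs in the former and 1141.5 in the latter. A barcode can lack such UMIs through low depth alone, so the split cannot tell cells with and without these genes apart. The split was made after the data were seen.

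In AF75 barcodes with over 5000 genes, HES1 was 2.55 CPM (12 UMIs) and LFNG 3.83 CPM (18 UMIs), against 0.674 and 0.890 CPM in the kept cells. In AF76 barcodes with 7% or more mitochondrial UMIs, NOTCH1 and NOTCH3 were both 4.38 CPM (6 UMIs each) and LFNG 5.11 CPM (7 UMIs), against 1.16, 0.845 and 1.36 CPM.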

How the results depend on the processing

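No paired analysis was possible because each follicle is 1 library, and for the same reason no library could be left out. Of 289 values recomputed under an alternative, 204 stayed within their counting error or, for counts of genes, within 1.5 times. Some log2 ratios within 2-fold changed sign. NOTCH3 between follicles went from 0.11 to -0.43 in cluster 0 alone and -0.44 without cluster 2. In cluster 1 to cluster 0 of AF76, JAG1 went from 0.094 to -0.22 and NOTCH2 from -0.31 to 0.029 without integration. After thinning that JAG1 value was -0.021. HEY2 between follicles, at -0.008, also changed sign in some alternatives. Between follicles, the count of members past 2-fold went from 1 to 0 after thinning, in cluster 0 alone and without cluster 2; in each of these HES1 had under 200 UMIs. Its log2 ratio was 2.04 after thinning and 1.26 in cluster 0, still past 2-fold beside 1.70 in all cells, and 0.52 without cluster 2, under 2-fold at any count. The count of all genes past 2-fold went from 250 to 41 within cluster 0 and to 1534 without the minimum of 200 UMIs. Between clusters 1 and 0 of AF75, the count of members went from 0 to 1 with doublets removed, after thinning, and with the members among the variable genes, where the log2 ratio of NOTCH2 was -1.05, -1.01 and -1.19, and the gene count went from 762 to 1184 in the last. In AF76 the gene count was 131, and 197 with 20 components, 672 without integration, 583 with the members among the variable genes and 86 after thinning. The causes were not tested. All 24 alternatives of the ratios of cluster 2 to cluster 0 stayed within counting error, HES1 between 5.14 and 5.41 and JAG1 between -3.23 and -3.05 on the log2 scale. Depth limits the 7 genes other than JAG1, NOTCH2 and HEY2, which rest on at most 239 UMIs in a follicle.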
